A study of Ovis aries with 20 samples.

Results

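The layer dependence of the prenatal testosterone effect was measured as a difference within each animal. For every gene the log2 level in theca cells was subtracted from the log2 level in granulosa cells of the same sheep, and this layer difference was compared between prenatal testosterone (prenatal T) and control animals. The comparison needs both layers, which 9 of the 10 animals had, so 18 of the 19 libraries with values were used. The granulosa library of control sheep 139 was not analysed here. The controls were sheep 224, 244, 246 and 268, and the prenatal T animals were sheep 209, 210, 230, 276 and 315.

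All animals were female offspring studied at 21 months of age. Their mothers had received intramuscular injections 2 times a week from day 30 to day 90 of gestation, of 100 mg testosterone propionate (1.2 mg/kg) for the prenatal T animals and of vehicle for the controls. Every animal of both groups was also given 10 mg prostaglandin F2α 2 times, 11 days apart, to synchronise estrus, and its ovaries were removed 18 hours after the second dose. Granulosa and theca cells were cut by microdissection from 14 µm frozen sections, and the cells of several antral follicles were pooled per animal and layer, so a library is an average over follicles whose sizes the labels do not give.

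The wall of an antral follicle has an inner granulosa layer and an outer theca layer, separated by a basement membrane. Theca cells respond to luteinizing hormone and make androgens, and granulosa cells respond to follicle-stimulating hormone and convert these androgens to estradiol. The layers also signal to each other, for example through Indian hedgehog from granulosa cells and insulin-like peptide 3 and growth factors from theca cells. Only the theca layer holds blood vessels and collagen-rich stroma before ovulation.

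The marker genes followed the layer labels in 8 of the 9 animals. The summed level of 18 granulosa markers was 97473 to 253688 normalized counts in the granulosa libraries of those 8 animals and 35968 to 63832 in their theca libraries, and the summed level of 23 theca and stroma markers was 27537 to 103295 in granulosa and 655986 to 942801 in theca libraries. The libraries of prenatal T sheep 209 stood apart. In its granulosa library 3 of the 18 granulosa markers were at 0, among them AMH (anti-Müllerian hormone) and FSHR (the receptor of follicle-stimulating hormone), at a depth of 16.1 M reads. In its granulosa library the summed level of epithelial markers was 108107 against 338 to 4393 in the other 8, and that of immune cell markers 27080 against 361 to 5159. In its theca library the summed level of epithelial markers was 26503 against 403 to 1120 in the other 8, and that of immune cell markers 32646 against 1453 to 6524. The tests over all genes and of the marker lists are therefore given for all 9 animals and for the 8 without sheep 209, and each value of a gene or list names its set. Depth was 12.7 to 26.0 M reads per library. The labels do not say whether follicles were collected in batches, and p-values measure the spread between animals.

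RNA of theca markers in the granulosa libraries was measured first, because carried-over theca RNA enters the layer difference directly. For each animal the granulosa level of the 23 theca and stroma markers was expressed as a percentage of the theca level, and the median over the markers was called the theca share. It also holds any RNA of these markers made by granulosa cells, so it can exceed the carried-over part. The theca share was 11.8%, 17.8%, 22.5% and 14.4% in controls 224, 244, 246 and 268. In the prenatal T animals it was 16.01% (sheep 209), 10.3% (210), 11.4% (230), 6.46% (276) and 11.0% (315). The groups overlapped with all animals, through sheep 209, and did not overlap without it. The theca share was 16.6 ± 4.604% in controls (SD, n = 4) and 11.0 ± 3.41% in prenatal T animals (SD, n = 5), a log2 difference of -0.61 (p = 0.0714, exact two-sided permutation of treatment over animals). Without sheep 209 the prenatal T value was 9.80 ± 2.28% (SD, n = 4), a log2 difference of -0.76 with p = 0.0286, the smallest that an exact permutation test of 4 animals against 4 can give. The mean over the markers in place of the median gave -0.52 without sheep 209 (p = 0.200, exact permutation).

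A second measure took the 100 genes with the largest theca excess. On these the theca share was 6.26 ± 2.39% in controls (SD, n = 4) and 3.26 ± 0.709% in the 4 prenatal T animals other than sheep 209, which alone stood at 12.5%. The log2 difference was -0.87 without sheep 209 (p = 0.114, exact permutation) and -0.48 with it (p = 0.413, exact permutation). The groups overlapped on it: control sheep 224 stood at 3.06%, below 3.21%, 3.95% and 3.58% in prenatal T sheep 210, 230 and 315. On average both measures put less RNA of theca-rich genes in the granulosa libraries of the prenatal T animals other than sheep 209. Only the median over the marker list passed 0.05. The 100 genes were drawn from these same animals and are not an independent check. In pooled tissue, fewer theca cells under the cut and less of these RNAs per cell cannot be told apart.

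The reverse share, granulosa marker RNA in theca libraries, was larger and overlapped between the groups. By the 18 granulosa markers it was 29.2%, 20.4%, 32.4% and 18.0% in the controls and 29.5%, 17.6%, 27.1% and 18.9% in prenatal T sheep 210, 230, 276 and 315. Sheep 209 stood at 106%, which is a median with 3 of the 18 markers at 0 in each layer. The mean log2 level of the markers in sheep 209 was 5.12 in granulosa and 6.16 in theca cells. The log2 difference of the reverse share was 0.35 with all animals (p = 0.770, exact permutation) and -0.097 without sheep 209 (p = 0.600, exact permutation). For markers of endothelium, smooth muscle and pericytes, immune cells and epithelium the layer difference gave exact permutation p-values of 0.429 to 0.971 over both sets of animals.

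**Figure D1:**
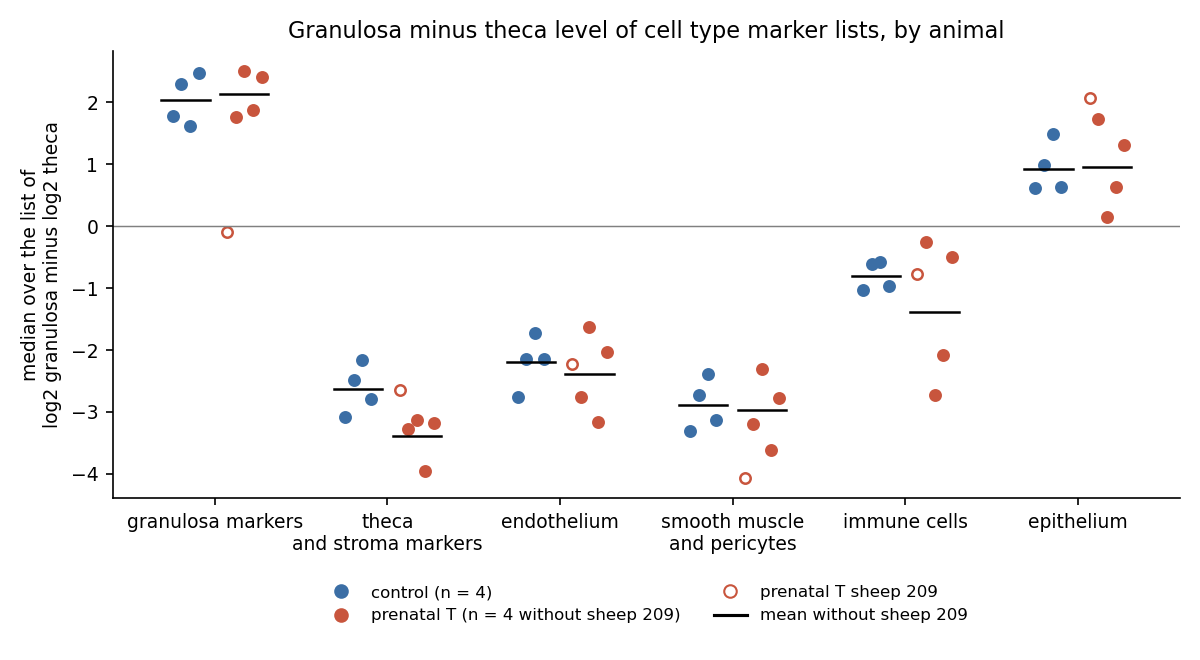
Median layer difference (log2 granulosa minus log2 theca, y axis) of each cell type marker list (x axis) by animal, with controls and prenatal T animals in separate colours and sheep 209 as an open symbol. The theca and stroma markers lay below all 4 controls in sheep 210, 230, 276 and 315, and sheep 209 had a granulosa marker value of -0.086 against 1.62 to 2.51 in the other 8.

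No gene passed the limma test of the layer difference. With 9 animals, limma called 0 of 16169 genes (0%) at a Benjamini-Hochberg adjusted p of 0.05, and the smallest adjusted p was 0.691. At an unadjusted p of 0.05, 755 genes passed (4.67% of those tested), 262 with a higher granulosa-minus-theca value in prenatal T animals (1.62%) and 493 with a lower one (3.05%). Without sheep 209 limma again called 0 of 15923 genes (0%), the smallest adjusted p was 0.136, and 1328 genes had an unadjusted p under 0.05 (8.34%), 396 higher (2.49%) and 932 lower (5.85%). The count-based tests were run on recovered reads. edgeR called 0 genes in both sets, and DESeq2 called 18 with 9 animals (4 higher, 14 lower) and 31 without sheep 209 (5 higher, 26 lower), and of the genes described below it called C1QTNF3, FGD5, MYLK, ITGA8, PTN, IL17RD, SERINC1, IL6ST, SCARA3, BHLHE41 and OXT in both sets and CTTNBP2, FRZB, LDLRAD4, FBXW4, IGF1, KLHL3 and MTCL1 without sheep 209 only.

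The groups did not overlap for 326 genes with 9 animals (2.02%), 121 of them higher (0.748%) and 205 lower (1.27%), and for 779 without sheep 209 (4.89%), 229 higher (1.44%) and 550 lower (3.45%). A change above 0, with no test, was found in 46.7% of genes with 9 animals and 45.8% without sheep 209. The excess of lower over higher genes moved with the scaling and with the treatment of carry-over. Of the genes at an unadjusted p under 0.05 without sheep 209, 553 were higher and 707 lower after TMM scaling, and 525 higher and 702 lower by edgeR. When the theca share by the 100 genes was subtracted from the granulosa levels, 628 were higher and 568 lower, when both layers were corrected with the 100-gene shares, 426 were higher and 580 lower, and when the theca share by the marker list was subtracted, 1125 were higher and 297 lower while the median of all genes moved from -0.028 to 0.11. With 9 animals the numbers were 342 higher and 370 lower after TMM scaling, and 207 and 584 by edgeR, a larger excess of lower genes than in limma. They were 366 and 359 with the 100-gene share subtracted and 749 and 181 with the marker-list share subtracted. The share corrections set levels that came out below 0 to 0.

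In what follows, the group difference of a gene is its layer difference in prenatal T animals minus that in controls. Among theca-rich genes and without sheep 209, it was lower the more theca-rich the genes were. Genes were binned by their layer difference averaged over both groups, and the values below are without sheep 209. In the 122 genes with over 16-fold more RNA in theca (a layer difference under -4), the median group difference was -0.91 and 8.20% of genes were above 0, against 45.8% of all genes. The median was -0.63 in the 364 genes from -4 to -3, -0.30 in the 813 genes from -3 to -2 and -0.072 in the 4973 genes from -1 to 0. It was 0.024 in the 7126 genes from 0 to 1, 0.12 in the 879 genes from 1 to 2 and 0.10 in the 207 genes from 2 to 3. In the 39 genes above 3, the most granulosa-rich ones, the median was -0.22 and 28.2% were above 0, so the order did not go on to that end. In the lowest bin the median prenatal T minus control value was -0.74 in granulosa and 0.058 in theca cells. Subtracting the marker-list share, with granulosa levels below 0 set to 0, brought the lowest bin to -0.067 and the bin from -3 to -2 to 0.58. Where a granulosa level is set to 0 only the theca level is left. The corrected medians of the theca-rich bins are therefore not a measure of the change in granulosa cells. With 9 animals the medians of the same 3 theca-rich bins were -0.57, -0.32 and -0.087, the bin from -2 to -1 stood at 0.0091, and the lowest median, -1.05, was that of the 27 genes above 3, none of which was above 0. The theca markers are themselves among the theca-rich genes, so the share and the bins are not independent.

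**Figure D2:**
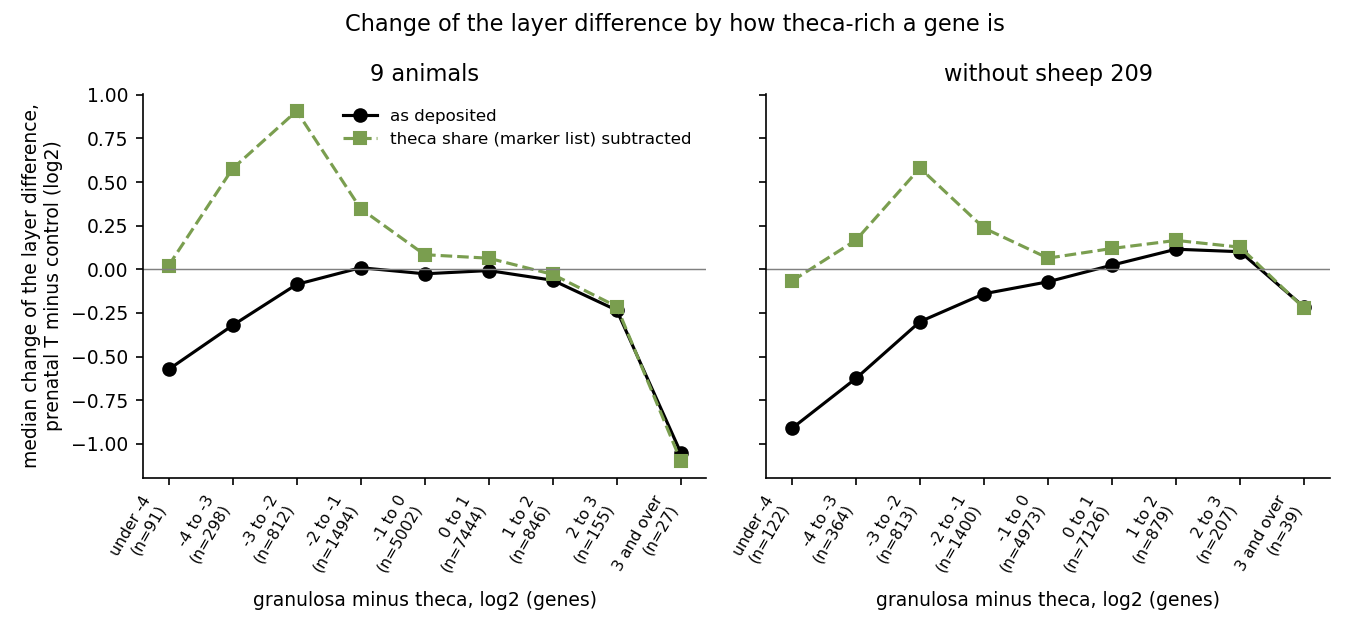
Median change of the layer difference, prenatal T minus control (log2, y axis), for genes binned by their mean layer difference (x axis, number of genes in brackets), with 9 animals and without sheep 209. As deposited, the most theca-rich bin reached -0.57 with 9 animals and -0.91 without sheep 209, and the most granulosa-rich bin -1.05 and -0.22. The squares show the values after the marker-list theca share was subtracted, with negative granulosa levels set to 0.

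The named genes with a lower layer difference were of 2 kinds by their theca excess. The theca-rich kind held MYLK, C1QTNF3, ITGA8, PTN, FRZB and IGF1. MYLK, the kinase that phosphorylates myosin light chains in smooth muscle, had layer differences of -3.43, -3.93, -3.60 and -4.06 in controls 224, 244, 246 and 268, and of -4.50 (sheep 209), -5.00 (210), -4.69 (230), -5.67 (276) and -4.88 (315) in prenatal T animals. All 5 prenatal T values lay below the lowest control. The group difference was -1.19 ± 0.23 (SE) with 9 animals (limma adjusted p = 0.691) and -1.30 ± 0.21 without sheep 209 (adjusted p = 0.303). Its granulosa level was 1344 to 1971 normalized counts in controls and 481 to 1488 in prenatal T animals, and its theca level 16315 to 27107 and 23992 to 33652.

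C1QTNF3, a secreted protein of the C1q and TNF related family, had granulosa levels of 392, 421, 444 and 208 in the controls and 133, 225, 168, 79.1 and 234 in prenatal T sheep 209, 210, 230, 276 and 315. The theca levels were 2098, 2551, 2176 and 1671 against 3357, 2387, 3739.6, 1255 and 4881. The layer difference was -2.57 ± 0.31 in controls (SD, n = 4) and -4.17 ± 0.50 in prenatal T animals (SD, n = 5), with no overlap, a group difference of -1.60 ± 0.25 (SE, limma adjusted p = 0.691). Without sheep 209 it was -1.48 ± 0.23 (adjusted p = 0.303). ITGA8, the integrin alpha 8 subunit, had a group difference of -0.93 ± 0.17 with 9 animals and -0.99 ± 0.18 without sheep 209, and its layer difference was -2.23 to -2.96 in controls and -3.36 to -3.83 in prenatal T animals.

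Secreted growth regulators of theca were among them. IGF1, insulin-like growth factor 1, had a granulosa level of 90.0 to 167 in controls and of 19.5 to 321 in prenatal T animals, and a theca level of 1023 to 1403 against 1746 to 7043. Its layer difference was -3.53, -3.51, -2.61 and -3.77 in the controls and -4.45, -4.92, -4.85, -6.41 and -4.32 in prenatal T sheep 209, 210, 230, 276 and 315. The groups did not overlap, and both layers contributed: without sheep 209 prenatal T minus control was -0.90 in granulosa cells and 0.88 in theca cells, and the group difference was -1.77 ± 0.41 (SE, limma adjusted p = 0.454). FRZB, a secreted Wnt antagonist, stood at 95.7 to 210 in control and 17.2 to 78.4 in prenatal T granulosa cells. Its group difference was -1.23 with 9 animals, and -1.64 ± 0.22 (limma adjusted p = 0.136) without sheep 209, whose value of -2.57 lay just above the controls at -3.37 to -2.62. PTN, the heparin-binding growth factor pleiotrophin, had a group difference of -1.10 ± 0.22 with 9 animals and -1.02 ± 0.21 without sheep 209. The latter turned to 1.28 when the marker-list theca share was subtracted and granulosa levels below 0 were set to 0. For these theca-rich genes the marker-list theca share times the theca level was large beside the granulosa level without sheep 209: 255% for MYLK, 216% for IGF1, 156% for FRZB, 152% for PTN, 125% for C1QTNF3 and 111% for ITGA8. A value over 100% means that the share accounts for more RNA than was measured in granulosa cells. By the 100-gene share the same percentages were 91.2%, 76.0%, 56.2%, 55.4%, 44.3% and 39.9%.

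The second kind was less theca-rich. In FGD5, CTTNBP2, LDLRAD4, IL17RD and FBXW4 the control layer differences were -1.15 to 0.36, and the carried-over part was 17.3% to 36.7% of the granulosa level by the marker-list share without sheep 209. FGD5, which activates Cdc42 and is known from vessel growth, stood at 371, 766, 515 and 422 in control granulosa cells and at 147, 191, 182, 162 and 123 in granulosa cells of prenatal T sheep 209, 210, 230, 276 and 315. In theca cells it stood at 670 to 857 in the controls and at 503 to 748 in prenatal T animals. All 5 prenatal T granulosa levels lay below the lowest control level, whereas the theca levels overlapped. The layer difference was -0.60 ± 0.43 (SD, n = 4) and -1.91 ± 0.35 (SD, n = 5), a group difference of -1.31 ± 0.24 (SE, limma adjusted p = 0.691), and of -1.20 ± 0.22 without sheep 209 (adjusted p = 0.369). The marker-list share times the theca level was 26.5% of the granulosa level, and subtracting it without sheep 209 gave -1.42. Endothelial markers had a group difference of -0.20 without sheep 209 (p = 0.743, exact permutation).

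CTTNBP2, a cortactin-binding protein of the cytoskeleton, had granulosa levels of 262, 443, 366 and 186 in controls and of 117, 96.0, 59.6 and 93.5 in sheep 210, 230, 276 and 315, but of 1045 in sheep 209. Its theca levels were 364 to 572 and 261 to 483. Without sheep 209 the group difference was -1.54 ± 0.20 (SE, limma adjusted p = 0.136), and with it -0.91 ± 0.62. LDLRAD4, an inhibitor of TGF-β signalling, stood at 709 to 1112 in control granulosa cells and at 139 to 532 in prenatal T granulosa cells. Its layer difference was -0.32 to 0.17 in controls and -2.29 to -0.72 in prenatal T animals with no overlap, a group difference of -1.22 ± 0.28 with 9 animals and -0.97 ± 0.17 without sheep 209 (limma adjusted p = 0.308). IL17RD, which restrains fibroblast growth factor signalling, stood at 497 to 719 in control and 77.1 to 443 in prenatal T granulosa cells, a group difference of -0.87 ± 0.18 with 9 animals and -0.85 ± 0.18 without sheep 209. FBXW4 stood at 117 to 168 in control granulosa cells, 40.2 to 75.8 in 4 prenatal T animals and 234 in sheep 209, with a group difference of -1.36 ± 0.24 without sheep 209 and -0.76 ± 0.60 with it, where the groups overlapped. Subtracting the theca share left the direction of all of these genes the same, at -1.90 for CTTNBP2, -1.03 for LDLRAD4, -0.86 for IL17RD and -1.87 for FBXW4 without sheep 209.

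SERINC1, SC5D and XIAP differed mainly in theca. SERINC1, a membrane protein linked to serine incorporation into lipids, had granulosa levels of 2041 to 3762 in controls and 1891 to 2866 in prenatal T animals, but theca levels of 2150.1 to 3449 and 3139 to 4507. Its group difference was -0.62 ± 0.12 with 9 animals, and without sheep 209 it was -0.067 in granulosa and 0.52 in theca cells. A like split was seen for SC5D, an enzyme of the last steps of cholesterol synthesis, whose theca level was 414 to 436 in controls and 395 to 814 in prenatal T animals, a group difference of -0.45 ± 0.14 with 9 animals and -0.53 ± 0.12 without sheep 209. XIAP, an inhibitor of caspases, had a group difference of -0.40 ± 0.12 with 9 animals and -0.48 ± 0.10 without sheep 209, with -0.11 in granulosa and 0.37 in theca cells. In IL6ST, the shared signalling receptor of the interleukin 6 family, both layers contributed: it had a group difference of -0.57 ± 0.13 with 9 animals and -0.61 ± 0.12 without sheep 209, with -0.36 in granulosa and 0.25 in theca cells.

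**Figure D3:**
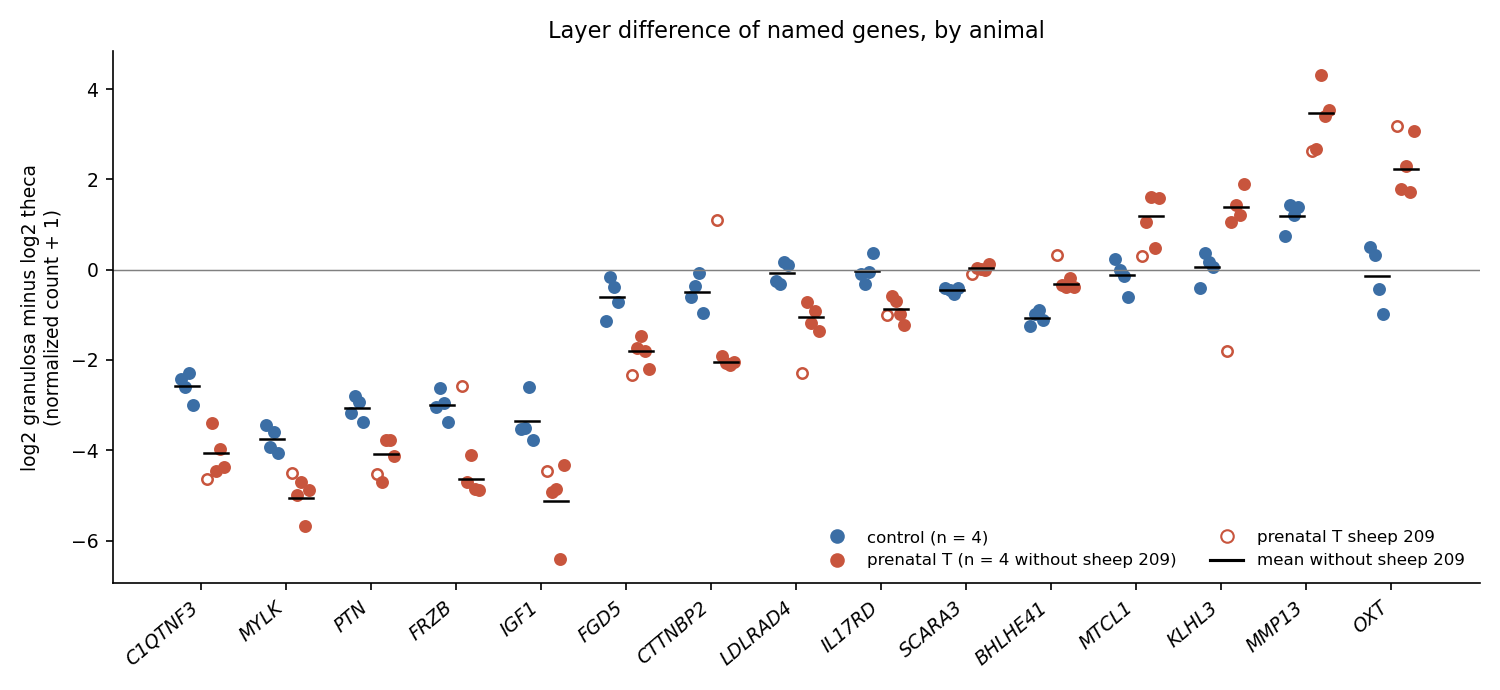
Layer difference (log2 granulosa minus log2 theca of the normalized count plus 1, y axis) of 15 named genes (x axis) in each animal, controls and prenatal T animals in separate colours, sheep 209 open. For MYLK, C1QTNF3, FGD5 and LDLRAD4 all 5 prenatal T animals lay below all 4 controls, and for SCARA3, BHLHE41, MTCL1, MMP13 and OXT all 5 lay above.

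Among the named genes with a higher layer difference in prenatal T animals, SCARA3, a scavenger receptor that responds to oxidative stress, had a layer difference of -0.40, -0.46, -0.54 and -0.41 in the controls and of -0.09, 0.05, 0.01, -0.02 and 0.12 in prenatal T sheep 209, 210, 230, 276 and 315. The spread within each group was 0.07 to 0.08 (SD), and the group difference was 0.47 ± 0.09 (SE, limma adjusted p = 0.691), and 0.49 ± 0.08 without sheep 209 (adjusted p = 0.308). Its levels ranged more widely than its layer difference, at 1190.3 to 1689 in control and 1037 to 3101 in prenatal T granulosa cells. BHLHE41, a transcriptional repressor of the circadian clock, had a group difference of 0.87 ± 0.18 with 9 animals and 0.74 ± 0.14 without sheep 209, and without sheep 209 this was 0.17 in granulosa and -0.56 in theca cells, where it stood at 406 to 490 in controls and 231 to 502 in prenatal T animals.

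MTCL1, KLHL3, DUSP1 and PHLDA1 differed mainly in granulosa cells, by 1.23, 1.01, 0.74 and 0.67 without sheep 209. MTCL1, a microtubule crosslinking protein, stood at 127 to 204 in control granulosa cells and at 341, 574, 130 and 777 in sheep 210, 230, 276 and 315, of which sheep 276 lay within the control range, a group difference of 1.31 ± 0.28 without sheep 209 (limma adjusted p = 0.454) and 1.14 ± 0.31 with it. KLHL3, an adaptor of a ubiquitin ligase, stood at 173 to 388 in controls and at 308 to 765 in the same 4 animals, a group difference of 1.34 ± 0.22 (limma adjusted p = 0.308), whereas sheep 209 stood at 36.8 and the group difference with it was 0.71 ± 0.64. The stress-response phosphatase DUSP1 stood at 339 to 531 in control and 521 to 4335 in prenatal T granulosa cells, and its group difference was 0.71 ± 0.18 with 9 animals and 0.69 ± 0.19 without sheep 209. PHLDA1, a pleckstrin domain protein induced by growth signals, had a layer difference of -1.50 to -1.62 in controls and -0.19 to -1.08 in prenatal T animals, a group difference of 0.78 ± 0.19 with 9 animals and 0.63 ± 0.14 without sheep 209.

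Of the higher named genes, MMP13, OXT and DACT2 had the largest group differences, at low levels in many but not all libraries. DACT2 stood at 2.89 to 15.4 in control and 6.88 to 108 in prenatal T granulosa cells. Its group difference was 2.38 ± 0.60 with 9 animals and 2.05 ± 0.56 without sheep 209. MMP13, a collagenase, stood at 10.0, 4.41, 167 and 1.62 in control granulosa cells and at 759, 182, 165, 42.4 and 483 in prenatal T granulosa cells, and at 0 to 71.4 and 3.07 to 121 in theca. Its layer difference had a group difference of 2.12 ± 0.44 (SE, limma adjusted p = 0.691) with 9 animals and 2.29 ± 0.48 without sheep 209, although the granulosa level of control sheep 246 exceeded those of prenatal T sheep 230 and 276. OXT, the gene of oxytocin, stood at 5.68 to 15.4 in control granulosa cells and at 8.05, 58.1, 24.5, 2.29 and 2011 in prenatal T sheep 209, 210, 230, 276 and 315, and the theca libraries of sheep 209 and 276 were at 0. Its group difference was 2.56 ± 0.53 with 9 animals and 2.37 ± 0.54 without sheep 209, and 1.45 with 9 animals when the pseudocount was 10 in place of 1.

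**Figure D4:**
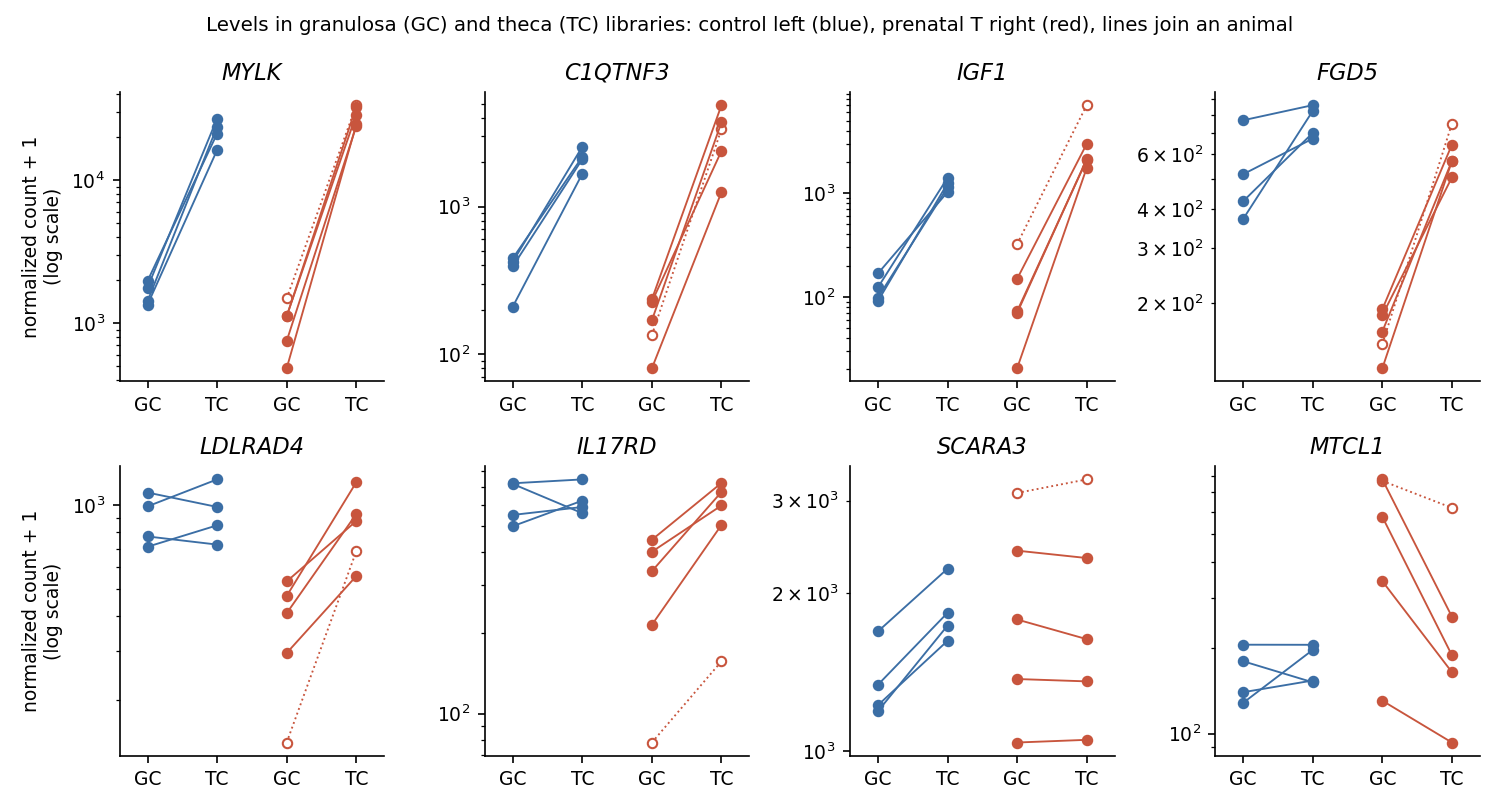
Normalized count plus 1 (y axis, log scale, with its own range in each panel) of 8 genes in granulosa (GC) and theca (TC) libraries, each line joining the 2 layers of 1 animal, with controls left and prenatal T animals right and sheep 209 drawn open and dotted. FGD5, LDLRAD4 and IL17RD were lower in prenatal T granulosa libraries and MYLK, C1QTNF3 and IGF1 were at far higher levels in theca than in granulosa libraries.

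The gene lists are described by counts beside those for all genes, of which, without sheep 209, 45.8% were above 0 with a median of -0.028, and 2.49% were higher and 5.85% lower at an unadjusted p under 0.05. List and gene values from here on are without sheep 209 unless stated. The lists were chosen with earlier results of these data known, and 0 members of any list passed the adjusted threshold. Of the extracellular matrix genes 34 of 45 lay below 0, with a median of -0.43 and 8 (17.8%) lower at an unadjusted p under 0.05. The median matrix layer difference within each animal overlapped between the groups, at -2.70 to -1.36 in controls and -3.22 to -1.76 in prenatal T animals. Of those 8 genes, the collagens COL1A1 and COL1A2 had a group difference of -0.92 ± 0.32 and -0.99 ± 0.32. COL1A1 stood at 12589 to 30780.3 in control granulosa cells and 7248 to 13710.2 in prenatal T granulosa cells. CCN3, a matricellular protein that the table holds in 2 entries, had a group difference of -1.40 ± 0.40 (-2.07 ± 0.74 with 9 animals) in the entry without a suffix. That entry stood at 652 to 4509.6 in control and 74.5 to 271 in prenatal T granulosa cells, and its prenatal T minus control value in theca was -1.58. Its layer differences overlapped, at 1.56 to 2.96 in controls and -0.20 to 1.66 in prenatal T animals. Of the 23 theca markers 21 lay below 0, with a median of -0.55. The theca list is the one behind the theca share, and the matrix list holds some of its genes.

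In the cholesterol list, without sheep 209, 20 of 27 lay below 0 with a median of -0.19, 5 (18.5%) lower at an unadjusted p under 0.05, while the median prenatal T minus control value was 0.15 in granulosa and 0.28 in theca cells. The cholesterol median within each animal overlapped, at 0.32 to 0.93 in controls and 0.26 to 0.76 in prenatal T animals. Of the ribosomal protein genes 49 of 69 were below 0 (median -0.10, 10 or 14.5% lower at an unadjusted p under 0.05), and the median with 9 animals was -0.0027. Their median within each animal also overlapped, at -0.26 to -0.024 in controls and -0.44 to -0.11 in prenatal T animals. Hedgehog genes had 9 of 13 below 0 with a median of -0.46, but their median within each animal overlapped between the groups. It was -1.78 to -1.38 in controls and -2.06 to -1.45 in prenatal T animals. Among the hedgehog genes IHH, the granulosa ligand, had a layer difference of 3.21 to 4.08 in controls and 2.76 to 3.47 in the 4 prenatal T animals, with overlap. Its group difference was -0.50 ± 0.20 (-0.90 ± 0.43 with 9 animals), with 0.13 in granulosa and 0.64 in theca cells. The IHH target GLI1, which theca cells express and which is also in the theca marker list, had a group difference of -0.78 ± 0.28. For GLI1 prenatal T minus control was -0.80 in granulosa and -0.025 in theca cells. Its carried-over part by the marker-list share was 136% of the granulosa level. The receptor PTCH1, likewise in the theca marker list, had a group difference of -0.31 ± 0.23 (-0.15 ± 0.27 with 9 animals) with overlapping groups.

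Hypoxia and glycolysis genes lay higher in the 8 animals, 33 of 36 above 0 with a median of 0.23 and 6 (16.7%) higher at an unadjusted p under 0.05. GPI, glucose-6-phosphate isomerase, stood at 1906 to 2598 in control granulosa cells and 2628 to 2877 in those of the 4 prenatal T animals, a group difference of 0.40 ± 0.10 (0.23 ± 0.18 with 9 animals). TPI1, triosephosphate isomerase, had a group difference of 0.40 ± 0.12 and the glucose transporter SLC2A3 one of 0.62 ± 0.21. With sheep 209, 18 of 36 were above 0 with a median of -0.0015. Cell cycle genes were above 0 in 43 of 48 in both sets, with medians of 0.17 and 0.22, and 0 had an unadjusted p under 0.05. The median cell cycle layer difference was 0.50 to 1.56 in controls and 0.84 to 1.27 in prenatal T animals, so the groups overlapped. Interferon response genes had median prenatal T minus control values of 0.86 in granulosa and 1.09 in theca cells without sheep 209, and a median group difference of 0.0029. One animal stood far above the rest for IFI6, a gene induced by interferon: sheep 315 had 66481 in granulosa and 100421 in theca cells, where the other 8 animals had 428 to 1764 and 846 to 2151.

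**Figure D5:**
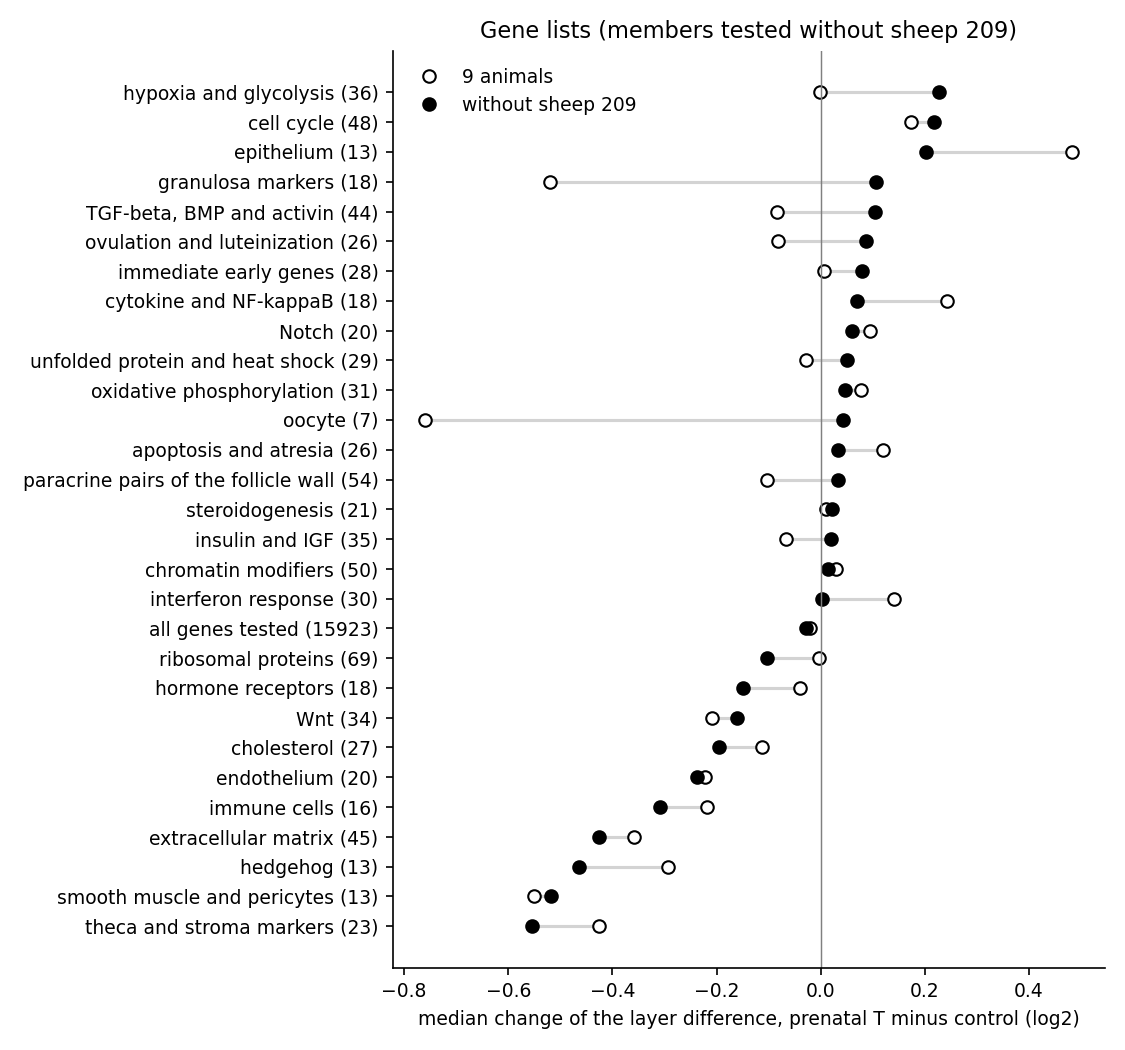
Median change of the layer difference, prenatal T minus control (log2, x axis), of each gene list (y axis, number of members tested without sheep 209 in brackets), with 9 animals (open) and without sheep 209 (filled). The theca, smooth muscle, hedgehog and matrix lists lay lowest and the hypoxia and cell cycle lists highest without sheep 209. These are medians over genes, at -0.55 for theca and -0.52 for smooth muscle and pericytes without sheep 209. In the same animals, the list median taken within each animal differed between the groups by -0.76 for theca (p = 0.0286, exact permutation). For smooth muscle and pericytes that per-animal median differed by only -0.089 (p = 0.857, exact permutation). The per-animal medians of the hedgehog and matrix lists overlapped between the groups.

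The main hormone and receptor genes of the follicle overlapped between the groups. FSHR had a layer difference of 2.08 to 3.78 in controls and 2.05 to 2.95 in the 4 prenatal T animals, a group difference of -0.17 ± 0.34 (-0.66 ± 0.57 with 9 animals). AMH had a group difference of -0.21 ± 0.18 (-0.70 ± 0.50 with 9 animals) and INHBA, the activin and inhibin beta A subunit, one of 0.28 ± 0.52 (-0.96 ± 1.27 with 9 animals). KITLG, the ligand by which granulosa cells stimulate oocyte and theca, had a group difference of 0.11 ± 0.14 (-0.35 ± 0.46 with 9 animals), and its receptor KIT one of 0.19 ± 0.34 (-0.12 ± 0.44 with 9 animals). For the steroid pathway, CYP17A1, the theca enzyme that makes androgen precursors, stood at 109 to 233 in prenatal T and 143 to 248 in control granulosa cells and at 795 to 2523 against 702 to 1112 in theca cells, all without sheep 209, in which it was at 0 in both layers. Its group difference was -1.07 ± 0.45 without sheep 209 (limma adjusted p = 0.576) and -0.43 ± 0.75 with it. INSL3, the theca peptide hormone, had a group difference of -0.58 ± 0.46 (-0.043 ± 0.67 with 9 animals) and the nuclear receptor NR5A1, a regulator of steroid enzymes, one of 0.43 ± 0.16. ESR2, the estrogen receptor of granulosa cells, had a group difference of 0.48 ± 0.17 and FDXR, which passes electrons to the steroid enzymes of mitochondria, one of 0.67 ± 0.25. In the insulin and IGF list, 20 of 35 members lay above 0 and 5 (14.3%) were lower at an unadjusted p under 0.05, among them IGF1 (above), IGF2 at -0.55 ± 0.21 and the kinase subunit PIK3CA at -0.50 ± 0.13.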

How the data were processed

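The libraries measured total RNA after removal of ribosomal RNA. The table that the authors deposited holds 1 signal value for each gene and library, a read count scaled by the library's size factor. Per the submitters' processing notes, the tools were STAR 2.6.0c, featureCounts (Subread 1.6.1) and DESeq2, with FastQC 0.11.5 and MultiQC 0.9. No coordinates are printed, because the sources used here do not give the genome build. Dividing by the step of a library gave whole numbers for 100% of values (relative tolerance 1e-06), and these recovered reads, 12.7 to 26.0 M per library, served edgeR and DESeq2. The table has 28524 genes and 0 columns lacked a sample. RefSeq gene names matched 6969 of 10441 LOC identifiers.

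Genes reaching 10 in 5 or more of the 18 libraries were kept. In R 4.3.3, limma 3.58.1 with a trend of variance on mean compared log2(granulosa + 1) minus log2(theca + 1) between treatments, two-sided, Benjamini-Hochberg over all genes, threshold 0.05. edgeR 4.0.16 and DESeq2 1.42.0 used terms for the animals. The members, lists and tests were chosen with earlier results of these data known. The limma test was also run on simulated counts with known changes. These had the same mean in both layers, no animal effect and no carry-over, so that run does not cover pairing or carry-over. Named genes are those with a symbol and a mean of at least 50 in a layer, the 10 of smallest p in each direction with and without sheep 209, 2 per list in each set, and a panel of follicle genes; some that the rule selects are not printed. Libraries of the same animal pair by its identifier: across genes, which are not independent replicates, deviations of the layers from their group means had r = 0.42 to 0.80. In 9 of 9 animals the granulosa library was more like that animal's theca library than like any other animal's. Among 32 pairs of libraries of the same group no repeated library was found (smallest chi-square per degree of freedom 27.8). The carried-over part of a gene is the theca share times its theca level. In the share corrections, levels that came out below 0 were set to 0. Alternatives were other pseudocounts, filters and scalings, leaving out each animal, fits with no or a random animal term, and corrections for the theca share.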

Additional observations from a re-analysis of the deposited data

Results flagged for a closer look

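Of 202 groups of animals scanned, 23 had a lowest or highest animal set apart from the rest by a gap that is large for the group's range. In groups not chosen for their values, chance gives such a gap in about 1 in 20. Many of these genes were named for a small p once sheep 209 was left out, such as KLHL3, IL17RA, TMOD1, CTTNBP2 and FBXW4, so that rate cannot be set against the count for sheep 209. Sheep 209 was the animal set apart in 17 of them, sheep 244 and 276 in 2 each and sheep 268 and 315 in 1 each. All values are layer differences (log2 granulosa minus log2 theca).

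In sheep 209 the granulosa marker list stood at -0.086 against 1.76 to 2.51 in the other prenatal T animals. Several of its genes did the same: AMH at 0 (both layers at 0) against 2.31 to 2.74, INHBA at -4.14 against 1.17 to 3.18, FST (follistatin) at -0.61 against 2.17 to 2.98, FOXL2 at -2.45 against 0.32 to 0.80 and KITLG at -1.02 against 1.05 to 1.59. ESR1 stood at -3.002 against 0.27 to 0.83.

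Of the other genes, sheep 209 stood lowest for KLHL3 (-1.80), IL17RA (-0.81), TMOD1 (-2.06), GPI (0.14) and TET1 (-2.08). It stood highest for BHLHE41 (0.33), CTTNBP2 (1.11), FBXW4 (0.72), BMPR1A (-0.0033) and XIAP (-0.21).

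Other animals were set apart for fewer genes. Sheep 276 stood lowest for ACTA2 (-6.39 against -5.33 to -5.12) and for IGF1 (-6.41 against -4.92 to -4.32), and sheep 315 highest for EFHD2 (0.84 against 0.36 to 0.49). Among controls, sheep 244 stood lowest for TCF7L2 (0.59) and highest for INSL3 (-1.55), and sheep 268 highest for FSHR (3.78).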

How the results depend on the processing

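Over the alternatives, 77 of 95 named genes never changed direction. limma called 0 genes under each other limma setting tried, edgeR called 0, and DESeq2 called 18 genes with 9 animals and 31 without sheep 209. With no replicate block (animals not paired) limma called 0 genes in both sets, and 99 and 283 genes had an unadjusted p under 0.05 in place of 755 and 1328. The log2 difference of the theca share was -0.76 to -0.43 with 9 animals when 1 animal was left out and -0.91 to -0.57 without sheep 209. Without sheep 209 the mean over markers gave -0.52 and the 100 genes -0.87, above the threshold. The granulosa share in theca libraries ranged from -0.097 to 0.55 and, without sheep 209, from -0.24 to 0.043. Some values turned direction. With the marker-list theca share subtracted they were PTN 1.503, COL1A1 0.55, COL1A2 0.38, CLDN5 1.19, GLI1 0.53 (without sheep 209), LHCGR -1.41, INSL3 0.65, PGR 0.17 and PTCH1 0.14. Granulosa levels that this subtraction took below 0 were set to 0. For COL1A1 and COL1A2 this held in all 9 animals. Their 0.55 and 0.38 are therefore the prenatal T minus control values in theca (-0.55 and -0.38) with the sign reversed. With that share as a covariate they were CYP17A1 1.03, STAR 1.05, INSL3 1.19 and PTCH1 0.42. With edgeR they were LHCGR -0.46, CYP19 0.036 and HSD3B1 -0.23. With DESeq2 they were LHCGR -0.38 and HSD3B1 -0.19. With the animal as a random effect LHCGR was -0.027, and with the 100-gene share subtracted INSL3 was 0.12. The cause of the other turns was not tested. Leaving out 1 animal gave ranges across 0 for LHCGR (-0.46 to 0.64), INHA (-0.74 to 0.061), INHBA (-1.55 to 0.28), FOXL2 (-0.71 to 0.10), CYP17A1 (-1.07 to 0.020), STAR (-0.69 to 0.24), HSD3B1 (-0.28 to 0.65), INSL3 (-0.58 to 0.39), KITLG (-0.54 to 0.11), KIT (-0.40 to 0.19) and PTCH1 (-0.31 to 0.11). Subtracting the 100-gene share, unmixing both layers and TMM scaling of the shares were added after seeing the data.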
